A study of Mus musculus with 4 samples.

Results

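The S100 family comprises small calcium-binding proteins, and 10 of its genes (S100b, S100a1, S100a4, S100a6, S100a8, S100a9, S100a10, S100a11, S100a13 and S100a16) were examined across the cell classes of the adult mouse hippocampus. The members were taken by gene symbol from the 31055 genes of the count matrices, which hold 17 genes of this family in all. Single cells from 4 mice were profiled, with 1 library per mouse. The groups were 2 wild-type (WT) mice and 2 littermates with the Dp(10)2Yey duplication, labelled Dp2Yey, and all were males aged 3 months on the C57BL/6J strain background, with no treatment named. Dp(10)2Yey mice carry an extra copy of the segment of mouse chromosome 10 that is related to human chromosome 21, in every cell of the body and from conception, so that no single tissue or time point is targeted. S100b lies in that segment and is present in 3 copies against 2 in WT, while the other members lie on chromosome 3 and have 2 copies in both groups. The comparisons ask in which cell classes each member was detected, how many cells hold its transcripts, and how its level differed between the genotypes.

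S100 proteins form dimers that change shape on binding calcium through EF-hand motifs and then attach to target proteins inside the cell. Several are also released, and some of these bind the receptor for advanced glycation end products (Ager, RAGE) or Toll-like receptor 4 (Tlr4) on other cells. In the brain S100B is widely used as a marker of astrocytes and is also made in the oligodendrocyte lineage, and its gene is on human chromosome 21. S100A8 and S100A9 pair to form calprotectin, an abundant protein of neutrophils.

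The files hold 6464 barcodes, of which 6241 were kept (in WT, 1010 for replicate 1 and 1681 for replicate 2; in Dp(10)2Yey, 1349 and 2201). The kept cells held 2951502 and 6744574 UMIs (unique molecular identifiers, each marking 1 captured transcript) in WT, and 5011426 and 8886429 in Dp(10)2Yey. Between 2 libraries at most 3 barcodes were shared. The cells were clustered without any S100 gene and the 24 clusters were grouped into 18 classes, 15 of which could be named from marker lists. A name such as astrocytes therefore stands for astrocyte-like cells. The labelled tissue was represented mainly by glia, with 2587 microglia, 969 oligodendrocytes, 913 astrocytes, 383 oligodendrocyte precursors, 78 committed oligodendrocyte precursors, 127 ependymal cells and 126 choroid plexus cells, and with 398 neurons whose median mitochondrial share was 27.8%. A sub-cluster of 108 of the 240 endothelial cells was led by the haemoglobin genes Hbb-bt and Hbb-bs beside 6 endothelial markers, so levels in endothelial cells include red blood cell RNA. Levels are given in CPM, the UMIs of a gene per 1000000 UMIs of a class in a library. Each UMI marks the 3′ end of a transcript whatever its length, but capture differs between genes, so CPM values are compared between classes and libraries and not between genes. The classes come from the same cells, and no test of levels between classes was made.

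Of the 9 members on chromosome 3, 7 (S100a1, S100a13, S100a16, S100a4, S100a6, S100a8 and S100a9) lie within 184.688 kb of the GRCm38 build, from base 90511034 to base 90695721, and S100a11 and S100a10 lie further on, up to base 93564643. S100b lies at chr10:76253853-76261159 on the plus strand, where it overlaps Dip2a on the minus strand. S100a4 overlaps the annotated gene Gm42674 on its own strand. How UMIs in the shared stretches were assigned was not tested. S100a1 (minus strand) and S100a13 (plus strand) run away from each other, with 42 bases between their annotated starts. RefSeq promoter windows of 300 bases (GRCm38.p6) were found for 9 of the 10 members, S100a10 being the exception, and were searched on both strands for TATAAA and CCAAT, motifs whose letters do not overlap. TATAAA is held by 13.6% and CCAAT by 37.4% of the 32851 promoter windows in the table. The windows printed here belong to the duplicated member (S100b), to the pair held by the fewest cells (S100a8 and S100a9) and to the member with a neighbour on the opposite strand (S100a1). Capitals mark motif matches in the first 3 windows, and in the window of S100a1 they mark the 42 bases between the annotated starts of S100a1 and S100a13.
S100b, chr10:76253586-76253885, plus strand: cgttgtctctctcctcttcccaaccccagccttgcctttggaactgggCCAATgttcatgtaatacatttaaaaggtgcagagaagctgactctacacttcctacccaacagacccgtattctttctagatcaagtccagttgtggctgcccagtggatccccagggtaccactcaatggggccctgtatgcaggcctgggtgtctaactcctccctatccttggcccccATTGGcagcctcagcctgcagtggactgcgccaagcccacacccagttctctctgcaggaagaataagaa
S100a8, chr3:90668821-90669120, plus strand: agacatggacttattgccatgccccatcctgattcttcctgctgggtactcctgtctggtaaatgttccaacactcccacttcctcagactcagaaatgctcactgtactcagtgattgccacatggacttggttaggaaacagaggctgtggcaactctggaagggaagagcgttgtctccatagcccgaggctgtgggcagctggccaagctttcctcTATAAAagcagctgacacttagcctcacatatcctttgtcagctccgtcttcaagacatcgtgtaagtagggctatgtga
S100a9, chr3:90695672-90695971, minus strand: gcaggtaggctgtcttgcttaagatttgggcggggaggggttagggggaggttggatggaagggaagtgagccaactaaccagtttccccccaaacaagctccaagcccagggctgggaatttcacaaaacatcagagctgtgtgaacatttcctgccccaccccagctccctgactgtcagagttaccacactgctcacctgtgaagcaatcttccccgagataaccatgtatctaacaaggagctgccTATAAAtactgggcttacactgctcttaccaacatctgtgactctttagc
S100a1, chr3:90514281-90514580, minus strand: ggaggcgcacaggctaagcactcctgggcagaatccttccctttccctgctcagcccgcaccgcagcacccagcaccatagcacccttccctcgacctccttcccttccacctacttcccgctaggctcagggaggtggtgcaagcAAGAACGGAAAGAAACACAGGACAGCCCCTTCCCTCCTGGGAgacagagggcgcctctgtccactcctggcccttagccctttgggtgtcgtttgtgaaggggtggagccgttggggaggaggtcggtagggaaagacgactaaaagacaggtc
Starts in these windows are those of RefSeq, which for S100b is base 76253836 and not the annotated start of the gene given above. In the S100b window CCAAT begins 202 bases before the start, and its reverse complement ATTGG begins 20 bases before it. TATAAA begins 30 bases before the start of S100a8 and at the start base itself in S100a9. In windows not printed, TATAAA begins 31 bases before the start of S100a4 and ATTGG 228 bases before that of S100a6. The windows of S100a1 and S100a13 share 204 bases. They and the windows of S100a16 and S100a11 hold neither motif. A match describes the letters of the window and shows no bound factor.

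The 10 members fell on different cell classes. S100b, S100a1, S100a13 and S100a16 were high in cells of the oligodendrocyte lineage and in astrocytes, S100a6 and S100a11 in ependymal cells, S100a4 and S100a10 in the small class of T cells and NK cells, and S100a8 and S100a9 in a cluster of 23 cells that they lead. Among the classes with cells in every library, which leaves out an unnamed cluster led by Mgp, the class with the highest mean CPM was also the class with the most UMIs per cell for 8 of the 10 members, the exceptions being S100a1 and S100a11.

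**Figure D1:**
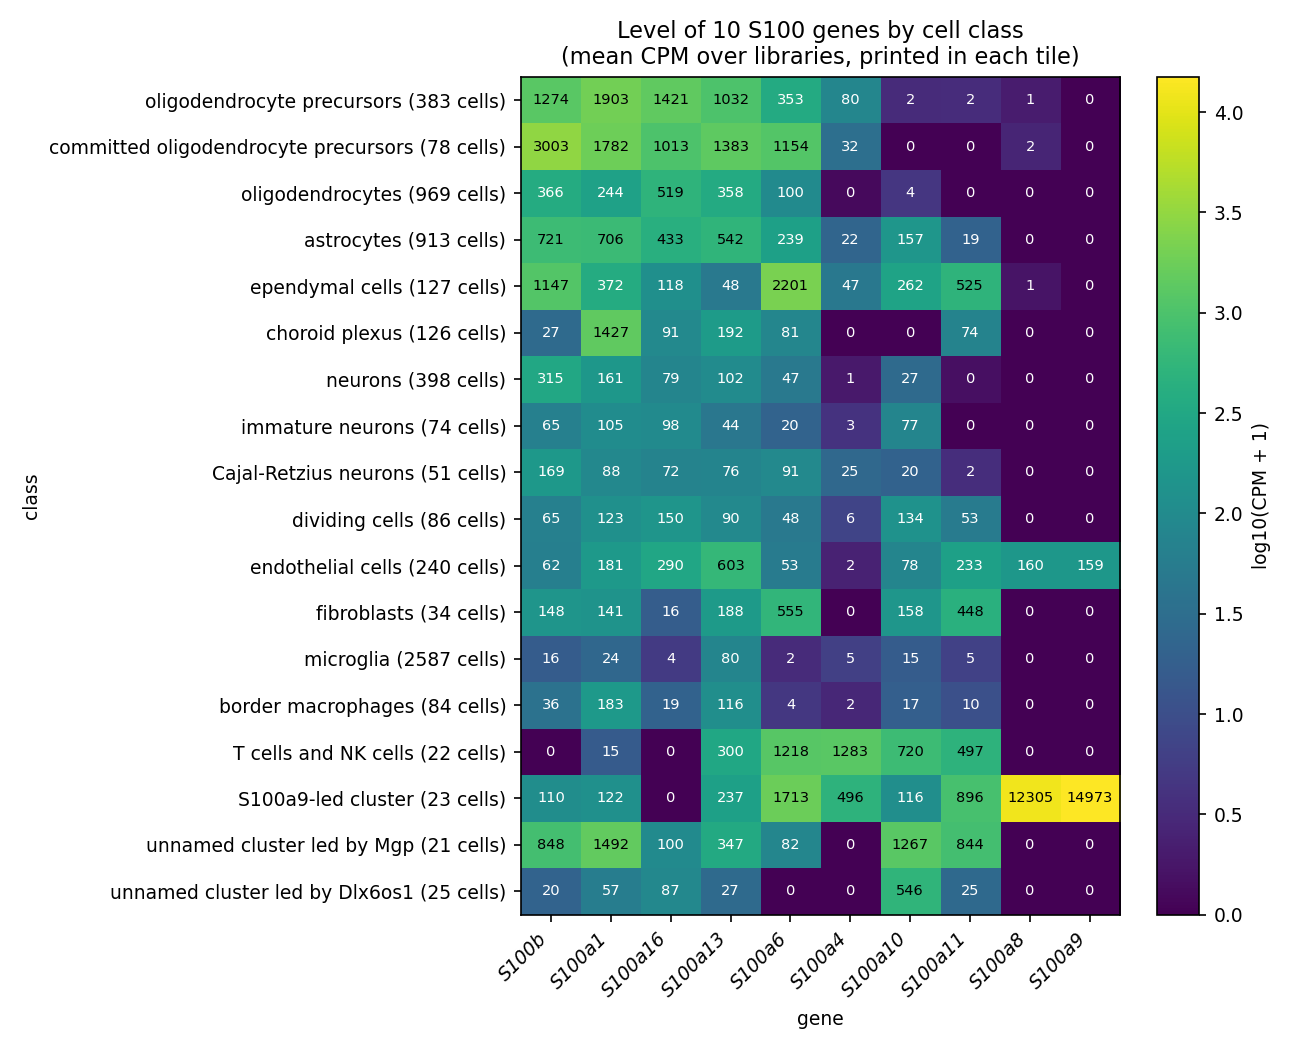
Mean level of each member (columns) in each of the 18 classes (rows), in CPM averaged over the libraries with cells of the class; colour is log10(CPM + 1) and each tile prints the mean CPM. S100a8 and S100a9 reach 12305 and 14973 CPM in the S100a9-led cluster and at or near 0 in most classes, while S100a13 is above 0 in all 18 classes.

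The number of cells that hold the UMIs of a member varied more than the number of UMIs. S100b had 8598 UMIs in 1715 of the 6241 cells, and the 208 cells richest in it held 50% of them. The 8284 UMIs of S100a1 lay in 2203 cells, with 327 cells holding 50%. S100a13 was the most widely spread, with 7061 UMIs in 2579 cells and 480 cells for 50%. The 6971 UMIs of S100a16 were found in 1995 cells, and 402 of these held 50%. S100a6 was more concentrated, with 4506 UMIs in 1110 cells and 50% in 75 of them. The 1246 UMIs of S100a10 lay in 573 cells, the 1085 of S100a11 in 383 cells and the 511 of S100a4 in 235 cells, and 99, 53 and 25 cells held 50% in turn. At the other end, S100a9 had 2109 UMIs in 10 cells and S100a8 had 1830 UMIs in 13 cells, and for each gene 2 cells were enough for 50%.

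**Figure D2:**
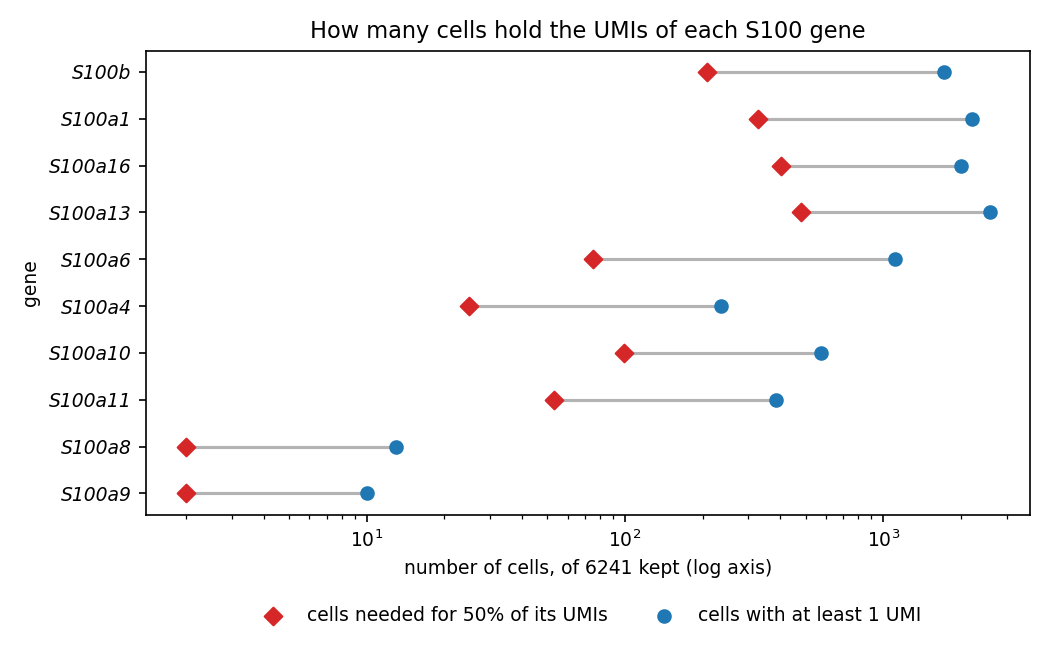
For each member (rows), the number of the 6241 kept cells with at least 1 UMI (circles) and the smallest number of cells that together hold 50% of its UMIs (diamonds), on a log axis. S100a8 and S100a9 rest on 13 and 10 cells, and the other 8 members on 235 to 2579 cells.

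S100b, the brain member known as an astrocyte marker, had its highest level in committed oligodendrocyte precursors, the short stage between precursor and myelin-forming cell. There it measured 3647 and 2168 CPM in WT replicates 1 and 2 and 3842 and 2355 CPM in Dp(10)2Yey replicates 1 and 2, and the groups overlapped. These 78 cells held 14.4% of all S100b UMIs. Oligodendrocyte precursors came next with 1274 ± 316 CPM (mean ± SD, n = 4 libraries) and held the largest share, 25.0%. Ependymal cells, which line the ventricles, followed with 1147 ± 307 CPM, astrocytes with 721 ± 222 CPM, oligodendrocytes with 366 ± 174 CPM and neurons with 315 ± 201 CPM. The lowest library of the committed precursors, 2168 CPM, lay above the highest of the oligodendrocyte precursors, 1609 CPM. From oligodendrocyte precursors onward each class overlapped the next over the libraries, although within a library the order of neighbours was the same in 4 of 4 libraries. Oligodendrocytes were above neurons in 3 of 4 libraries without the single oligodendrocyte described further on. The gap between neurons and dividing cells (65.4 ± 57.4 CPM) was the first without overlap among the 10 classes with at least 10 cells in every library. Microglia were at 15.5 ± 6.46 CPM, and no S100b UMI was found in the 22 T cells and NK cells.

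Depth differs between classes, so each cell was also thinned to 1000 UMIs, leaving out shallower cells. At that depth S100b was found in 94.3% of 53 committed oligodendrocyte precursors (25 left out), in 68.1% of 339 oligodendrocyte precursors (44 left out), in 58.1% of 93 ependymal cells (34 left out), in 42.6% of 603 astrocytes (310 left out), in 31.9% of 354 neurons (44 left out) and in 13.02% of 922 oligodendrocytes (47 left out). In microglia, a class with a low S100b level, the share was 1.92% of 2140 cells (447 left out). Before thinning the shares were 90.9% in oligodendrocyte precursors (median 4459 UMIs per cell), 57.4% in astrocytes (median 1627 UMIs) and 4.75% in microglia (median 3592 UMIs). By library the thinned share in astrocytes was 36.4% and 35.5% in WT and 50% and 45.1% in Dp(10)2Yey, with no overlap. In oligodendrocyte precursors it was 55.1% and 63.8% in WT and 79.5% and 68.5% in Dp(10)2Yey, again with no overlap. Endothelial cells went the other way without overlap, with 6.67% and 5.66% in WT and 2.94% and 1.82% in Dp(10)2Yey. These shares rest on 7 of 172 cells.

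Between the genotypes, S100b had a higher mean level in Dp(10)2Yey in all 7 classes tested, with log2 fold changes of 0.30 to 1.70, but 0 of 7 passed the threshold after adjustment. In oligodendrocyte precursors it measured 911 and 1122 CPM in WT and 1609 and 1453 CPM in Dp(10)2Yey. The log2 fold change was 0.57 (SE 0.16, 95% interval 0.24 to 0.89), with an unadjusted p of 0.00101 and an adjusted p of 0.562 by edgeR's quasi-likelihood test with Benjamini-Hochberg adjustment over the genes of the class. In astrocytes the values were 604 and 520 CPM in WT and 1028 and 732 CPM in Dp(10)2Yey, without overlap. There the log2 fold change was 0.63 (SE 0.20, interval 0.23 to 1.02, edgeR adjusted p = 0.721), and 0.34 to 0.90 with a library left out. Ependymal cells had 870 and 909 CPM in WT and 1497 and 1312 CPM in Dp(10)2Yey, a log2 fold change of 0.63 (SE 0.24, interval 0.15 to 1.10, edgeR adjusted p = 0.998). In microglia the level was low throughout, with 9.68 and 10.2 CPM in WT and 21.3 and 20.9 CPM in Dp(10)2Yey, from 12, 25, 39 and 75 UMIs. Summed over all kept cells S100b measured 287 and 261 CPM in WT and 566 and 355 CPM in Dp(10)2Yey, a log2 fold change of 0.75 (SE 0.22, interval 0.24 to 1.26, edgeR adjusted p = 1). With a library left out the log2 fold change of this sum was 0.36 to 1.07. In that sum the number of cells of a class and their level cannot be told apart.

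S100b could be tested in 7 classes, and its log2 fold change was above 0 in 7 of them. The unadjusted edgeR p was under 0.05 in 6, and the Dp(10)2Yey libraries were both above the WT libraries in 6. The classes share the same mice, so these counts are not of separate results. Of all genes tested in these classes, 48.7% (oligodendrocyte precursors) to 52.7% (neurons) had a log2 fold change above 0. Over all genes and classes tested, 3.51% of 47600 tests had an unadjusted p under 0.05, 15.7% had the Dp(10)2Yey libraries both above the WT libraries, and 0.0126% passed the adjusted threshold of 0.01, which S100b passed in 0 of 7 classes. The 95% interval of S100b held 0.58, the log2 ratio of 3 copies to 2, in 6 of 7 classes and lay above it in neurons. The endothelial values overlapped, with 49.0 and 51.4 CPM in WT and 121 and 28.1 CPM in Dp(10)2Yey. The exact two-sided permutation test on 1 gene has a smallest possible p of 0.33 in this design of 2 libraries per group. A test of whether the difference between genotypes varied over the 10 classes, added after the data were seen, gave an edgeR p of 0.028 for S100b (adjusted p = 1 over 10458 genes). Without Dp(10)2Yey replicate 2 the adjusted p of that test was 0.0221, and without neurons it was 1.

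**Figure D3:**
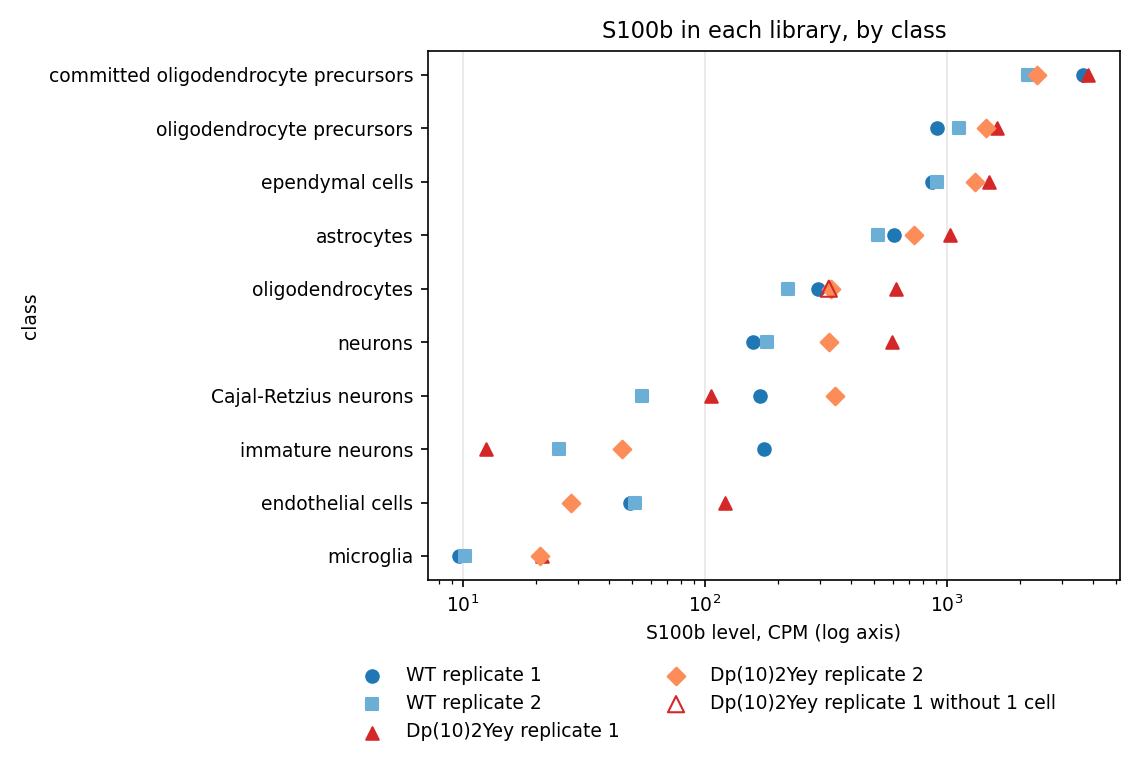
S100b level in CPM (log axis) in each library (points) for 10 classes (rows); the open triangle is Dp(10)2Yey replicate 1 without the 1 oligodendrocyte that holds 370 S100b UMIs. The Dp(10)2Yey points lie above the WT points in oligodendrocyte precursors, ependymal cells, astrocytes, oligodendrocytes, neurons and microglia, and overlap them in committed oligodendrocyte precursors and endothelial cells.

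Oligodendrocytes held 21.7% of the S100b UMIs, and 1 cell weighed heavily there. The levels were 293 and 222 CPM in WT and 618 and 333 CPM in Dp(10)2Yey, a log2 fold change of 0.90 (SE 0.23, edgeR adjusted p = 0.657). A single oligodendrocyte of Dp(10)2Yey replicate 1, with 33738 UMIs, carried 370 S100b UMIs, which is 1.10% of its own UMIs and 48.8% of those of its class in that library. It had 114 UMIs of Mbp, the gene of a myelin protein, 0 of the astrocyte gene Gfap and 0 of the precursor gene Pdgfra, and it was not called a doublet. It also held the highest S100a1 count of any cell, 48 UMIs. Without it the level of Dp(10)2Yey replicate 1 was 325 CPM, still above both WT libraries but below the 595 CPM of the neurons of that library, and the log2 fold change was 0.38 (SE 0.16, edgeR adjusted p = 1). Over all cells its removal lowered that library from 566 to 495 CPM and the log2 fold change to 0.63.

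The neurons had the highest S100b fold change with all 4 libraries, and they also held RNA of glial marker genes. Their S100b levels were 158 and 180 CPM in WT and 595 and 326 CPM in Dp(10)2Yey, and the log2 fold change was 1.70 (SE 0.48, interval 0.64 to 2.76, edgeR adjusted p = 0.999). It was 0.55 without cells of over 20% mitochondrial UMIs and 0.74 to 2.29 with a library left out, the lowest without Dp(10)2Yey replicate 1, where microglia were at 1.01. The 25 listed astrocyte markers summed to 5953 and 7126 CPM of the neurons in WT and to 11909 and 8802 CPM in Dp(10)2Yey, so they also lay higher in both Dp(10)2Yey libraries. Of the 25, 22 and 25 were detected in WT and 25 and 25 in Dp(10)2Yey, and none was at 0 over the libraries. The 20 oligodendrocyte markers summed to 3541 and 4361 CPM in WT and to 8866 and 1931 CPM in Dp(10)2Yey. In oligodendrocytes the astrocyte markers summed to 593 and 725 CPM in WT and to 1302 and 1062 CPM in Dp(10)2Yey. All 25 were detected in this class, 19 to 24 in a library. In microglia they summed to 436 and 397 CPM in WT and to 489 and 534 CPM in Dp(10)2Yey. All 25 were detected there too, 21 to 25 in a library. In oligodendrocyte precursors they summed to 5477 and 5310 CPM in WT and to 5871 and 6154 CPM in Dp(10)2Yey, with 24 of the 25 detected and Agt at 0. In endothelial cells the astrocyte markers summed to 3131 and 3131 CPM in WT and to 4267 and 3823 CPM in Dp(10)2Yey. All 25 were detected there. Ependymal cells held the most, with 19549 and 22389 CPM in WT and 21905 and 26760 CPM in Dp(10)2Yey, which overlap. Of the 25, 22 were detected there, with Gjb6, Cldn10 and Slc7a10 at 0. The part of this RNA in the S100b values of these classes was not tested.

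S100a1, best known for tuning calcium handling in heart muscle, had its highest level in oligodendrocyte precursors. They measured 1783 and 1955 CPM in WT and 2031 and 1843 CPM in Dp(10)2Yey, with overlapping groups and a log2 fold change of 0.04 (SE 0.15). These cells held 37.3% of its UMIs, and after thinning it was found in 80.5% of them, against 2.20% of microglia. The committed precursors, too few for a test, were at 1782 ± 204 CPM, and 83.02% of the 53 deep enough for thinning held a UMI. Among the 10 classes tested, choroid plexus cells, which secrete cerebrospinal fluid and showed little S100b (26.9 CPM), followed with 1427 ± 486 CPM (n = 4 libraries), and 73.8% of them held a UMI after thinning. The libraries of these classes overlapped, but in each library the precursors were the higher. Astrocytes (706 ± 74.8 CPM), ependymal cells (372 ± 50.8 CPM) and oligodendrocytes (244 ± 40.1 CPM) came next, each without overlap with the one before.

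S100a1 had 2 copies in both genotypes, and its values between them differed in direction from class to class. In the choroid plexus it measured 1104 and 926 CPM in WT and 1924 and 1753 CPM in Dp(10)2Yey, without overlap, from 39, 63, 72 and 284 UMIs. The log2 fold change was 0.74 (SE 0.23, edgeR adjusted p = 0.929). Immature neurons went the other way, with 176 and 187 CPM in WT and 12.5 and 45.4 CPM in Dp(10)2Yey. These rest on 9, 15, 1 and 8 UMIs in 10 of the 74 cells, and the log2 fold change was −2.39 (SE 0.61, edgeR adjusted p = 0.519), with −3.74 to −1.97 when a library was left out, the lowest without Dp(10)2Yey replicate 2. The 15 listed markers of oligodendrocyte precursors, the class richest in S100a1, summed to 2244 and 1197 CPM of these immature neurons in WT and to 213 and 937 CPM in Dp(10)2Yey, and their part in the result was not tested. Of the 15, 14 and 13 were detected in WT and 4 and 14 in Dp(10)2Yey, and Sapcd2 was at 0 throughout. In neurons S100a1 measured 67.7 and 101 CPM in WT and 336 and 137 CPM in Dp(10)2Yey, a log2 fold change of 1.67 (SE 0.56, edgeR adjusted p = 0.999). It was 0.24 without cells of over 20% mitochondrial UMIs and 0.40 to 2.38 with a library left out, the lowest without Dp(10)2Yey replicate 1. The astrocyte markers in these neurons also lay higher in both Dp(10)2Yey libraries, as given for S100b, and their part in the S100a1 values was not tested. The added test across the 10 classes gave S100a1 an adjusted p of 0.000366, where 0.746% of 10458 genes were under 0.05. It was 0.0626 without immature neurons, 0.0452 without neurons, 1 without both, 0.377 without WT replicate 1 and 1 without WT replicate 2.

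**Figure D4:**
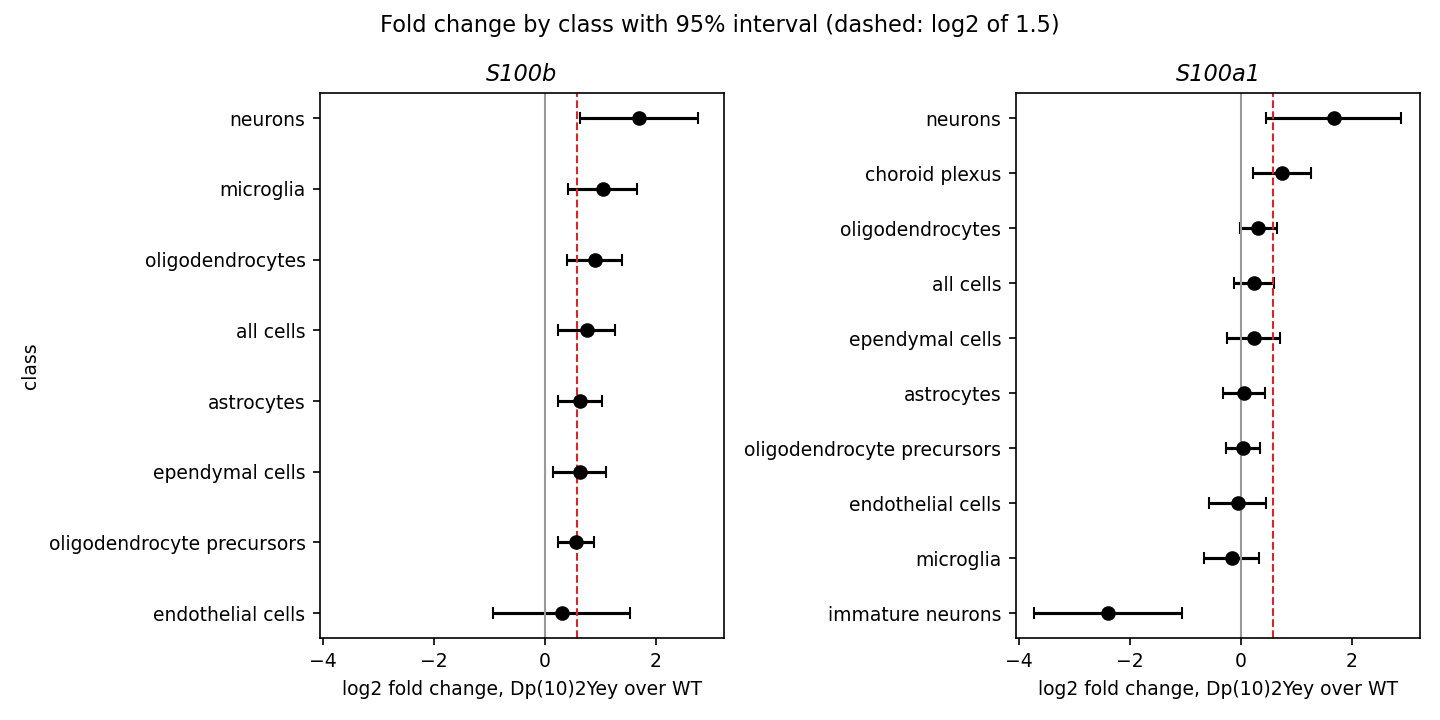
Log2 fold change of Dp(10)2Yey over WT (points) with its 95% interval (bars) from edgeR for S100b and S100a1 in all cells and in each class tested (rows); the dashed line marks the log2 ratio of 3 copies to 2. S100b lies between 0.30 and 1.70, and S100a1 between −2.39 in immature neurons and 1.67 in neurons.

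S100a16 and S100a13 shared the oligodendrocyte lineage with S100a1. S100a16 measured 1421 ± 115 CPM in oligodendrocyte precursors, 1013 ± 184 CPM in the committed precursors and 519 ± 42.9 CPM in oligodendrocytes (n = 4 libraries each). Its largest share of UMIs, 38.0%, lay in the oligodendrocytes, where 778 of 969 cells held at least 1, and microglia had few (0.374% of cells after thinning, against 75.8% of oligodendrocyte precursors). S100a13, which takes part in the release of Fgf1 and Il1a, proteins without a secretion signal, was at 1383 ± 287 CPM in the committed precursors, 1032 ± 32.6 CPM in oligodendrocyte precursors, 603 ± 27.0 CPM in endothelial cells and 542 ± 67.5 CPM in astrocytes. Endothelial cells and astrocytes overlapped over the libraries. It was also the member with the most UMIs in microglia, 731 in 579 cells, and 7.85% of microglia held 1 after thinning. It was low in ependymal cells, where 2.15% of thinned cells held a UMI and the mean was 48.2 CPM. The log2 fold changes of both genes in the classes named here were small, from −0.16 for S100a16 in oligodendrocyte precursors to 0.22 for S100a13 in astrocytes, with unadjusted edgeR p of 0.272 to 0.984.

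S100a6, also called calcyclin, had its highest mean level in the ependymal cells. They measured 1994 and 2395 CPM in WT and 2173 and 2241 CPM in Dp(10)2Yey, and the groups overlapped with a log2 fold change of −0.02 (SE 0.25, interval −0.52 to 0.48). The 127 ependymal cells held 38.5% of its UMIs, and 74.2% of them had 1 after thinning, against 0.187% of microglia. The share was 59.1% of 22 T cells and NK cells and 61.9% of 21 cells of the S100a9-led cluster, whose levels varied widely between libraries. The next of the 10 classes, oligodendrocyte precursors, was at 353 ± 52.2 CPM, without overlap. The committed precursors, too few for a test, were at 1154 ± 259 CPM, while mature oligodendrocytes were at 99.5 ± 14.1 CPM.

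S100a11, which binds annexin A1, shared the ependymal cells with S100a6, at 525 ± 64.2 CPM and 37.1% of its UMIs. Of the 10 classes tested, endothelial cells followed at 233 ± 28.2 CPM without overlap. The mean was higher than in ependymal cells in the S100a9-led cluster (896 CPM, with libraries from 0 to 2492 CPM) and in the Mgp-led cluster (844 CPM), which were too few for a test. None of the 969 oligodendrocytes held an S100a11 UMI, which by 3 counts allows up to 0.578 CPM. S100a10, the partner of annexin A2 that links it to membrane proteins, was detected in 189 of 913 astrocytes, which held 28.3% of its UMIs. They held the largest share in the Dp(10)2Yey libraries, but in WT ependymal cells did in replicate 1 (31.1%) and the Mgp-led cluster in replicate 2 (27.9%). By level the T cells and NK cells were higher (720 ± 355 CPM), as was an unnamed cluster of 21 cells led by Mgp, at 1042 and 1003 CPM in WT and 1755 CPM in the single Dp(10)2Yey library that held any of it. Ependymal cells were at 262 ± 56.0 CPM and astrocytes at 157 ± 38.2 CPM. In microglia S100a10 was low, with 22.6 and 16.4 CPM in WT and 9.85 and 12.5 CPM in Dp(10)2Yey, a log2 fold change of −0.74 (SE 0.30, edgeR adjusted p = 0.999).

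S100a4, known from motile immune and connective tissue cells and a partner of non-muscle myosin, was held by few cells. The 22 T cells and NK cells carried 144 of its 511 UMIs, with 1088 and 119 CPM in WT and 2497 and 1429 CPM in Dp(10)2Yey, from 3, 2, 6 and 11 cells. The S100a9-led cluster carried 68 UMIs in 5 cells, all in Dp(10)2Yey. Among the larger classes oligodendrocyte precursors led with 80.0 ± 22.9 CPM, and 89 of 383 cells held a UMI. Over all cells S100a4 had a log2 fold change of 0.96 (SE 0.20, edgeR adjusted p = 1). Within the 3 classes where it could be tested the log2 fold changes were −0.39 in oligodendrocyte precursors, −0.20 in astrocytes and −0.05 in microglia. The number of immune cells per library and the S100a4 level per cell cannot be told apart in the sum over all cells.

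S100a8 and S100a9, the calprotectin pair, were held by 10 cells. Each of these had at least 10 UMIs of the pair, and together they carried 1827 of 1830 S100a8 UMIs and 2109 of 2109 S100a9 UMIs. WT replicate 1 held 1 such cell, WT replicate 2 held 0, Dp(10)2Yey replicate 1 held 4 and Dp(10)2Yey replicate 2 held 5. As shares of the cells these are 0.0990% (exact 95% binomial interval 0.00251 to 0.550%), 0 (0 to 0.219%, where 3 cells of the total allow up to 0.178%), 0.297% (0.0808 to 0.757%) and 0.227% (0.0738 to 0.529%), and the intervals, which cover counting error only, overlap between the genotypes. The S100a8 level over all cells was 42.01 and 0 CPM in WT and 138 and 114 CPM in Dp(10)2Yey, and that of S100a9 was 42.7 and 0 CPM in WT and 188 and 117 CPM in Dp(10)2Yey. By edgeR the unadjusted p were 0.0234 and 0.0178 (adjusted p = 1 for both), and these values rest on the 10 cells.

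Within the 10 cells the pair varied together. The richest held 660 S100a8 and 658 S100a9 UMIs, the next 369 and 507, and the poorest 7 and 14 and 13 and 7. The pair made up 0.114 to 33.2% of a cell's UMIs. Csf3r, the receptor for granulocyte colony-stimulating factor, was found in 10 of 10 cells and the neutrophil gene Retnlg in 7. Of the 23 listed neutrophil markers each cell had 9 to 19, with 21 to 474 UMIs, where the median of all other cells was 0 markers. S100a6 and S100a11 were found in 10 of 10 of these cells, S100a10 in 1 and S100a4 in 0. Of the 10 cells 8 were in the S100a9-led cluster, which held 93.1% of the UMIs of the pair, and 2 were in the haemoglobin-led endothelial sub-cluster, where they give the whole S100a9 level of the endothelial class. The other 15 cells of the S100a9-led cluster held 0 UMIs of the pair but 68 of S100a4 and 92 of S100a6, and a median of 58 UMIs of MHC class II genes, which present antigen. The cluster therefore holds cells of more than 1 kind and was given no name.

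**Figure D5:**
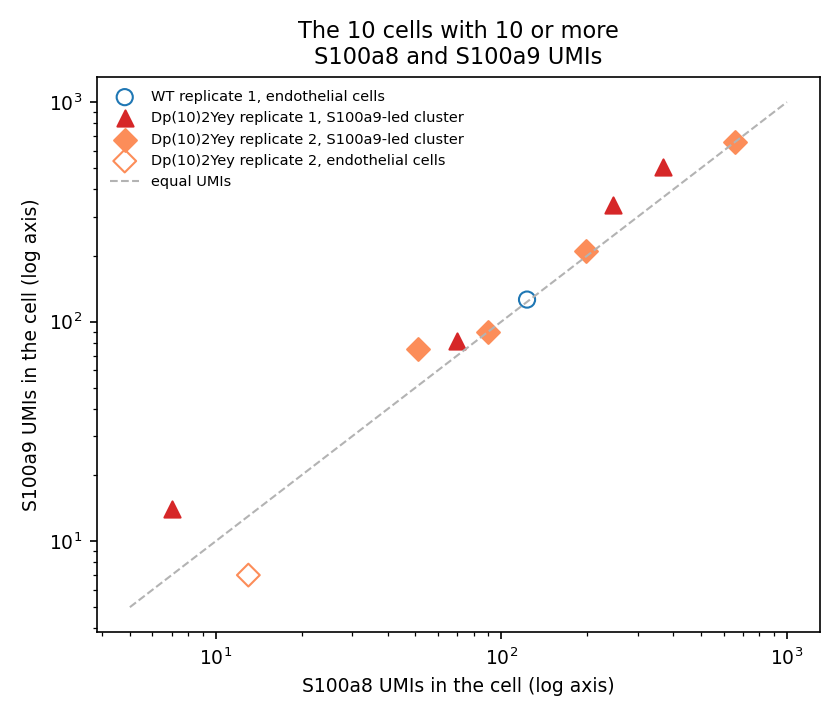
S100a8 UMIs (x, log axis) against S100a9 UMIs (y, log axis) in the 10 cells with at least 10 UMIs of the pair, by library and class; the dashed line marks equal counts. The cells run along the line from 7 and 14 UMIs to 660 and 658 UMIs, with 1 WT cell and 9 Dp(10)2Yey cells.

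Over all members, 49 tests in classes were possible and 0 passed the adjusted threshold of 0.01 by edgeR, beside 0.0126% of all tests (with DESeq2 the count was also 0). With a library left out, S100b in oligodendrocytes passed without WT replicate 1, S100a8 and S100a9 in endothelial cells passed, lower in Dp(10)2Yey, when either WT replicate 2 or Dp(10)2Yey replicate 1 was dropped, and S100a1 in neurons and S100b in neurons and oligodendrocytes passed without Dp(10)2Yey replicate 2. The endothelial values of S100a8 and S100a9 rest on 1 cell of WT replicate 1, with 123 and 126 UMIs, and 1 of Dp(10)2Yey replicate 2, with 13 and 7. The 2-copy members gave 42 of these tests, which share the same mice between classes. Of the 42, 4 had an unadjusted p under 0.05 (S100a1 in choroid plexus, neurons and immature neurons and S100a10 in microglia), beside 3.51% of all tests. In 7 of 42 the Dp(10)2Yey libraries were both above the WT libraries and in 5 of 42 both below, each beside 15.7% of all tests. Their median log2 fold change was 0.00446, while the medians of all genes were within 0.03 of 0 in every class. In neurons all 5 of the 2-copy members tested were above 0, beside 52.7% of the 4969 genes tested there, with a median log2 fold change of 0.81 beside 0.03 for all genes. Besides S100a1, these included S100a16 at 1.31, S100a6 at 0.81 and S100a13 at 0.71, with edgeR adjusted p of 0.999 each. For these 3 the libraries of the genotypes overlapped, with Dp(10)2Yey replicate 1 the highest and Dp(10)2Yey replicate 2 within the WT range. The part of the astrocyte markers, which also lay higher in these neurons, was not tested. In the sum over all cells 10 members were tested, and 4 (S100b, S100a4, S100a8 and S100a9) had the Dp(10)2Yey libraries both above the WT libraries, beside 12.8% of 13806 genes. These 4 were also those with an unadjusted edgeR p under 0.05, beside 2.8% of genes, and 0 of 10 passed the adjusted threshold. The values of S100a8 and S100a9 rest on the same 10 cells, so they are not separate results.

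The wider S100 pathway was taken as 42 listed genes, namely receptors of released S100 proteins (among them Ager, Tlr4 and Cd36), other ligands and co-factors of these receptors, and binding partners such as Anxa1, Anxa2, Ahnak, Cacybp and Gfap. Of these, 38 could be tested over all cells and 4 to 28 in a class. By edgeR 0 passed the adjusted threshold in either direction in any class, beside 0.0126% of all class tests, or over all cells, beside 0% of genes. At an unadjusted edgeR p under 0.05, 1 lay higher (Gfap) and 1 lower (Cd36) over all cells, beside 2.8% of genes. Ahnak lay higher in ependymal cells, and none of the listed genes reached that p in the other 9 classes, beside 3.51% of all class tests. Gfap had a log2 fold change of 0.50 over all cells but −0.10 in astrocytes, where the Dp(10)2Yey libraries were both below the WT libraries. The sum over all cells does not separate cell number from level. The median log2 fold change of the list over all cells was −0.013, beside −0.0050 for all genes. By class this median ran from −0.065 in dividing cells (8 genes tested) to 0.30 in immature neurons (9 tested). It was 0.13 in oligodendrocytes (19 tested).

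The patterns of the members over the 15 named classes were compared with those of 9232 genes by Pearson's r of log2(CPM + 10), as a description over class means that share libraries. The genes most like S100b were Mboat2 (r = 0.92) and Tmem184c (0.92), and those most like S100a1 were Dhrs1 (0.86), Eci1 (0.85) and Hsdl2 (0.84). S100a11 was most like 4930523C07Rik (0.93) and Anxa2 (0.91), S100a16 like E2f5 (0.90) and Srgap1 (0.89), and S100a6 like Dad1 (0.88) and Sympk (0.87). S100a4 was most like Lrrc20 (0.87) and Lck (0.86), S100a10 like Kansl3 (0.86) and S100a13 like Mfsd2a (0.81). Lrrc20, Lck, Kansl3, Sympk and 4930523C07Rik each had their highest level in the T cells and NK cells. That class has 22 cells, with 2 to 11 in a library, so these likenesses rest in part on few cells. Lrrc20 and Kansl3 reached only 59.4 CPM there. Among the members themselves r was 0.79 for S100a1 with S100a16, 0.79 for S100b with S100a16, 0.72 for S100a10 with S100a11 and 0.71 for S100b with S100a1. No likeness is given for S100a8 and S100a9, whose levels in the named classes rest on 2 cells of the endothelial class and 3 single UMIs.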

How the data were processed

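Single hippocampal cells were profiled on the 10x Genomics 3′ platform in 4 libraries, 1 per mouse. The deposited matrices hold raw UMI counts per gene and barcode, which the authors made with Cell Ranger 3.0.2 against a custom mm10 reference. Cell types were not annotated in them. Cells were prepared on 2 days with 1 mouse of each genotype per day; the sources used here do not tie replicate numbers to days.

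Following the study's stated settings, the 6281 barcodes with 200 or more genes and the 17535 genes seen in over 3 cells entered the analysis, and libraries were integrated in Seurat 5.3.0 by CCA with 2000 variable genes per library, 50 dimensions and resolution 0.2. All 17 S100 genes were left out of the variable genes. A first pass at resolution 0.5 gave no separate red blood cell cluster, so the cluster richest in Hba-a1 was split and a sub-cluster of 40 barcodes was removed. That split was chosen once the first clusters had been seen. Clusters whose 10 leading genes held markers of several classes were split once more (14 to 24 clusters), and a class was named from at least 3 markers of its list among those 10 genes. Scrublet (scanpy 1.11.5) called 54 doublets (0.865%), which were kept.

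UMI counts were summed per library and class and compared between genotypes with edgeR 4.0.16 (quasi-likelihood test, TMM, low-count filter, no replicate block), for all genes and for the 10 classes with at least 10 cells in every library, with Benjamini-Hochberg adjustment within a class and the study's threshold of 0.01. DESeq2 1.42.0 was an alternative, with other settings in the closing section. The count test was tested on simulated data, and the outcome is not given here. Printed CPM are UMIs per 1000000 without TMM scaling. Each library came from its own mouse, so the mouse is the replicate, with 2 mice per group. The edgeR fit also draws the spread of each gene toward that of the other genes in the class. Its p-values, SE and intervals therefore rest only in part on the spread of that gene between mice. The named genes are the 10 members, the listed pathway genes and, for likeness, the 3 genes of highest correlation among those at 50 CPM or more in a named class. The members and lists were chosen with earlier results of these data known. A gene that the likeness rule names for S100b is not reported here.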

Additional observations from a re-analysis of the deposited data

Results flagged for a closer look

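The difference in S100a1 between the genotypes varied over the 10 classes tested, by a quasi-likelihood test of the class-by-genotype terms in edgeR that was added after the data were seen (adjusted p = 0.000366 over 10458 genes). The class sums of a library come from 1 mouse and are not separate replicates. The values that differ most are those of immature neurons, with a log2 fold change of −2.39 from 33 UMIs, and of neurons, with 1.67. The adjusted p was 1 without both of these classes. Without WT replicate 1 it was 0.377 and without WT replicate 2 it was 1, while it was 0.000184 and 2.54e-05 without Dp(10)2Yey replicates 1 and 2.

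Barcodes left out of the comparisons, those with under 200 genes and the 40 removed with red blood cell RNA, also held S100 transcripts, above the 3 UMIs that a count of 0 allows. They held 26 UMIs of S100a13, 19 of S100b, 17 of S100a1 and 12 of S100a16.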

How the results depend on the processing

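Over up to 17 alternatives per result, S100b stayed above 0 in all cells (0.36 to 1.07, and 0.76 without a low-count filter), astrocytes (0.34 to 0.90), oligodendrocyte precursors (0.43 to 0.77), ependymal cells (0.48 to 0.82), oligodendrocytes (0.38 to 1.29), microglia (0.43 to 1.18) and neurons (0.55 to 2.29). Its adjusted p ranged from 0.198 to 1 in astrocytes, and its lowest was 0.0355 in oligodendrocyte precursors. In neurons and oligodendrocytes the lowest adjusted p came from fits with a library left out. The log2 fold changes of those fits were 0.74 to 2.29 in neurons and 0.41 to 1.29 in oligodendrocytes. In oligodendrocytes 1 cell held 48.8% of the S100b UMIs of Dp(10)2Yey replicate 1. Without a filter on low counts the adjusted p in all cells was 0.000461 for S100b, 0.00303 for S100a4, 8.08e-46 for S100a8 and 9.79e-55 for S100a9, all past the threshold. S100a8 and S100a9 in all cells ranged from 1.59 to 12.77 and from 1.85 to 13.04 with a library left out, the highest without WT replicate 1, where WT is at 0 and the fitted value is no bound. The number of member tests past the threshold was 0 in the report's fit and 3 without that filter, where S100b in oligodendrocytes passed and, lower in Dp(10)2Yey and from 1 cell of each genotype, S100a8 and S100a9 in endothelial cells. With 1 library left out it was 1 to 3; the lone sample is then assumed to vary like the others. Over all genes and classes the calls numbered 6 in the report's fit, 107 without the filter, 2 with DESeq2, 9 with DESeq2's size factors, 10 without integration, 3 without doublets and 60 to 198 with a library left out. S100b in endothelial cells turned to −0.59 without integration and to −0.83 without Dp(10)2Yey replicate 1 (−0.83 to 1.26 over the libraries left out). S100a11 in all cells, 0.13 as reported, turned to −0.046 without the 10 cells rich in S100a8 and S100a9 and to −0.062 without WT replicate 2 (−0.062 to 0.32 over the libraries left out). The cause was not tested. The share of S100b UMIs held by oligodendrocyte precursors was 26.7% without cells of over 20% mitochondrial UMIs. As means of the 4 libraries, the share of astrocytes with an S100b UMI was 41.7% at 1000 UMIs per cell, 30.6% at 500 UMIs and 56.7% unthinned, and that of oligodendrocyte precursors was 66.7%, 43.1% and 89.6%. The share of the S100a8 and S100a9 UMIs in the S100a9-led cluster was 78.2 to 99.4%.

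Replicate numbers are shared by the genotypes but not known to mark a day, so they were not used as pairs. The deviations of same-numbered samples correlated with r of −0.0022 over all cells, and within classes from −0.284 in dividing cells to 0.159 in microglia and 0.235 in oligodendrocytes. With the number as a replicate block S100b was at 0.70 in all cells and 0.59 in astrocytes, and 0 members were called, while calls over all genes and classes went from 6 to 32. With the pairs crossed, an alternative added later because r was also −0.234 in choroid plexus, they numbered 29. Classes of few cells limit the depth: S100a1 in immature neurons rests on 33 UMIs.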

Other observations

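The other 7 S100 genes in the matrices were rare. S100a3 had 84 UMIs in 77 cells, of which 64 UMIs lay in oligodendrocyte precursors, the class that also led for S100a1. The 80 UMIs of S100a5 all lay in 2 neurons of WT replicate 1, which held 51 and 29 of them. S100a7a had 9 UMIs, S100a14 had 5, S100a2 had 4, S100g had 1 and S100z had 0.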
